A study of Mus musculus with 2 samples.

Results

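The 10 genes described here, Vegfa, Bnip3, Ndrg1, Egln1, Egln3, Ankrd37, Kdm3a, P4ha1, Ddit4 and Higd1a, are known targets of the hypoxia-inducible factors (HIF) that do not act in glycolysis. They were taken by symbol from the 14366 genes of both tables, and all 10 were present. Mouse hematopoietic stem cells (HSC) from wildtype C57/B6 bone marrow, pooled from 8 mice aged 6 to 8 weeks, were sorted for Sca-1, c-Kit and CD150 on the surface and for the absence of CD48 and of lineage markers. Both cultures were kept in Myelocult M5300 with stem cell factor (100 ng/ml), thrombopoietin (50 ng/ml) and Primocin for 48 h, one with 10 µM deferoxamine (DFO), an iron chelator, and the other with sterile water as vehicle. Each culture gave 1 library of 3′ single-cell RNA-seq from droplets, so differences between them could not be checked in replicates, and p-values are left out. Cells of both sexes were present in each library, and the oxygen level in culture is not stated in the labels.

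HIF is a transcription factor made of an oxygen-regulated alpha subunit (Hif1a or Epas1) and a stable partner (Arnt). Prolyl hydroxylases of the Egln family use oxygen, iron and 2-oxoglutarate to modify the alpha subunit, which the von Hippel-Lindau protein (Vhl) then marks for degradation. Because these enzymes need iron, DFO is widely used to stabilise HIF, and HSC are known to reside in a marrow niche of low oxygen. The comparison of DFO with vehicle therefore asks whether transcripts of HIF targets differed between the cultures.

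The tables held 8708 vehicle cells with a median of 27805.5 molecules and 9852 DFO cells with a median of 27114 molecules, each molecule counted by its unique molecular identifier. The members together had 174084 molecules in the vehicle library, or 667.1 CPM (molecules scaled to the library total, the usual unit of counts over libraries of different depth), and 180967 molecules or 636.5 CPM in the DFO library. The libraries shared 24 cell barcodes. Of the genes that define the sort, Kit was seen in 57% of vehicle and 62.5% of DFO cells, Ly6a (Sca-1) in 47.7% and 58.3%, and Slamf1 (CD150) in 26.5% and 22%. Cd48, whose protein was absent at the sort, was seen in 64.4% of cells of both libraries. Molecules of macrophage or dendritic cell markers summed to 2 CPM for vehicle and 1.85 CPM for DFO, and those of stromal or endothelial markers to 5.75 and 4.65 CPM. Only 2 of 8 and 4 of 7 of these listed markers were among the 14366 genes, which lowers both sums. Erythroid markers summed to 928.8 and 891.6 CPM, mostly Hbb-bt and Car2, and neutrophil-monocyte markers to 264.9 and 243.4 CPM. Megakaryocyte markers summed to 2126 CPM in the vehicle library and to 1114 CPM in the DFO library. The median mitochondrial share was 3.88% in vehicle and 4.4% in DFO cells.

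The DFO library held less of 9 of the 10 HIF targets, with ratios of DFO to vehicle between 0.81 for Vegfa and 0.984 for Higd1a. Egln1 was the exception and was higher with DFO. Higd1a is counted here by its pooled level but is given no direction, because its sign depended on the processing. Differences are given on the log2(CPM + 1) scale as DFO minus vehicle, and their median was -0.14 over the 10 members and 0.019 over the 8886 genes tested, those with a mean of 5 CPM or more. Of all tested genes 42.1% had a difference below 0. At 1.1-fold or more, 5 members were lower and 0 higher, where 8.56% of all tested genes were lower and 10.1% higher by as much. Sums carry exact 95% Poisson intervals and ratios exact 95% intervals, which cover counting error only and leave out variation between cells, cultures and library preparations. Molecules are counted once at the 3′ end, so levels in CPM were not divided by transcript length.

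**Figure D1:**
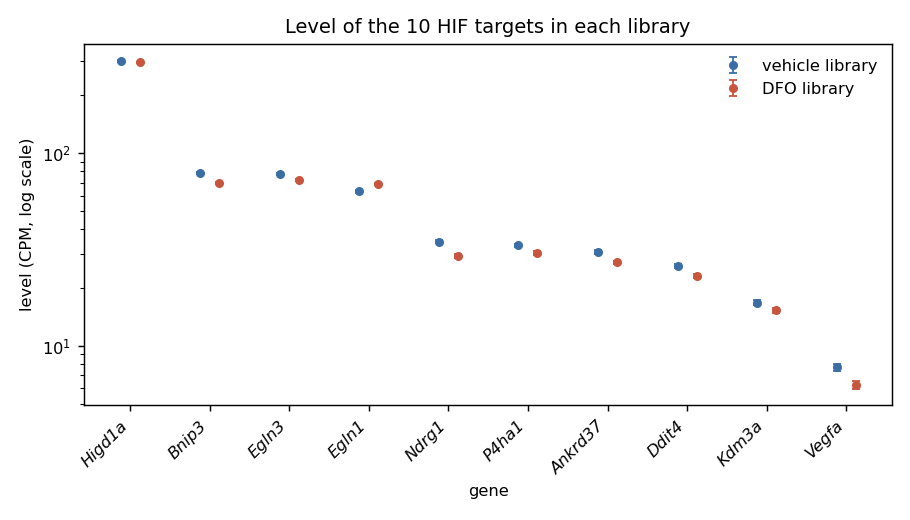
Level of each HIF target in CPM on a log axis in the vehicle library (blue) and the DFO library (red), with exact 95% Poisson intervals, ordered by the vehicle level. Higd1a is highest at 299 and 295 CPM and Vegfa lowest at 7.7 and 6.24 CPM, and only Egln1 has its red point above the blue one.

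Vegfa, the secreted growth factor that drives vessel growth, was the lowest of the members at 7.7 CPM (7.37 to 8.05) in the vehicle library and 6.24 CPM (5.96 to 6.54) in the DFO library. The ratio of DFO to vehicle was 0.81 (0.76 to 0.864) and the log2 difference -0.26, the largest decrease among the members, with 2.24% of tested genes lower still. Few cells held a molecule: after each cell was thinned to 10000 molecules, Vegfa was detected in 6.51% of cells with vehicle (exact binomial 95% interval 5.99% to 7.06%) and 5.58% with DFO (5.13% to 6.07%). Thinning gives every cell the same depth, and left out 351 vehicle and 433 DFO cells that were shallower. Vegfa lies at chr17:46016993-46032377 in the RefSeq annotation of GRCm38.p6.

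Egln1 and Egln3 encode prolyl hydroxylases of the HIF alpha subunit (PHD2 and PHD3) and are themselves HIF targets, which closes a feedback loop. These family members differed in opposite directions. Egln1 (chr8:124908587-124949254) went from 63.2 CPM (62.2 to 64.1) without to 68.8 CPM (67.8 to 69.8) with DFO, a ratio of 1.09 (1.07 to 1.11). Its log2 difference of 0.12 was higher than that of 86.4% of the tested genes. Egln3 (chr12:54178981-54203874) had 77.4 CPM (76.3 to 78.5) with vehicle and 72.1 CPM (71.2 to 73.1) with DFO, a ratio of 0.932 (0.914 to 0.95) and a log2 difference of -0.10. Shares of thinned cells with a molecule moved alike, for Egln1 from 43.9% up to 46.5% and for Egln3 from 44.3% down to 43.2%, and only the intervals of Egln1 were apart (42.8% to 45% in vehicle, 45.5% to 47.5% in DFO).

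Kdm3a and P4ha1 encode further enzymes that use iron and 2-oxoglutarate, a histone H3 lysine demethylase and the catalytic subunit of collagen prolyl 4-hydroxylase. Kdm3a (chr6:71588970-71632990) had 16.7 CPM (16.2 to 17.2) with vehicle and 15.3 CPM (14.8 to 15.7) with DFO, a ratio of 0.914 (0.876 to 0.953). P4ha1 (chr10:59323197-59373304) had 33.1 CPM (32.4 to 33.8) with vehicle and 30.3 CPM (29.6 to 30.9) with DFO, a ratio of 0.913 (0.886 to 0.941). Their log2 differences of -0.12 and -0.13 stayed short of 1.1-fold.

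Bnip3 and Higd1a encode mitochondrial proteins, a receptor for the removal of mitochondria by autophagy and a small inner membrane protein that binds respiratory chain complexes. Bnip3 (chr7:138890836-138909506) had 78.3 CPM (77.3 to 79.4) with vehicle and 69.9 CPM (68.9 to 70.9) with DFO, a ratio of 0.892 (0.875 to 0.91) and a log2 difference of -0.16. Higd1a (chr9:121848557-121857796), the most abundant member, had 299 CPM (297 to 301) with vehicle and 295 CPM (293 to 297) with DFO. Its ratio of 0.984 (0.975 to 0.994) was the nearest to 1 of the members, and its log2 difference turned from -0.023 to 0.0072 once every cluster took an equal share of both libraries, and Higd1a is given no direction.

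Ndrg1, Ddit4 and Ankrd37 are stress-responsive genes: Ndrg1 is linked to differentiation, Ddit4 (REDD1) restrains the growth kinase mTORC1, and Ankrd37 encodes an ankyrin repeat protein. Ndrg1 (chr15:66929318-66969641) had 34.6 CPM (33.9 to 35.4) with vehicle and 29.2 CPM (28.6 to 29.8) with DFO, a ratio of 0.843 (0.818 to 0.869) and a log2 difference of -0.24. Ddit4 (chr10:59949675-59951770) had 26 CPM (25.4 to 26.6) with vehicle and 23 CPM (22.4 to 23.5) with DFO, a ratio of 0.883 (0.853 to 0.913). Ankrd37 (chr8:45996908-46000414) had 30.7 CPM (30 to 31.4) with vehicle and 27 CPM (26.4 to 27.6) with DFO, a ratio of 0.88 (0.853 to 0.908). All 3 passed 1.1-fold, as did Vegfa and Bnip3.

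**Figure D2:**
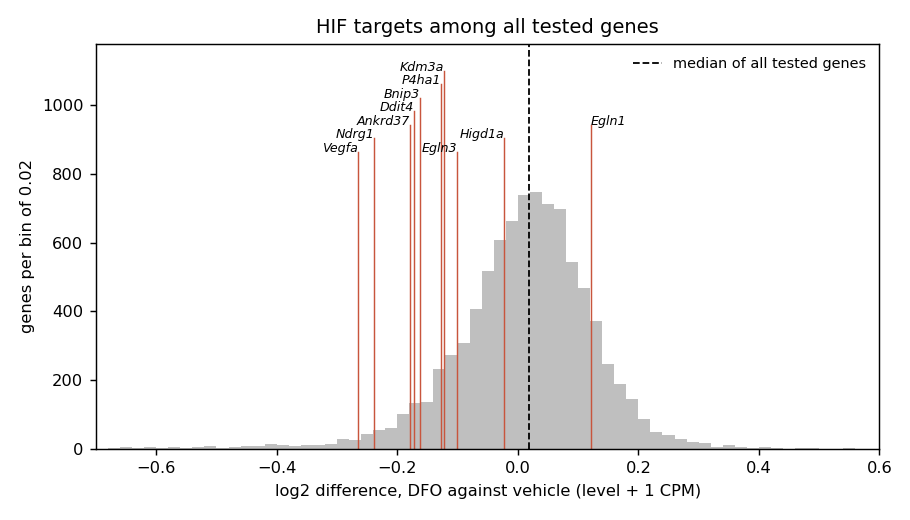
Histogram of the log2 difference between the DFO and vehicle libraries over the 8886 tested genes (grey, genes per bin of 0.02), with the 10 HIF targets as red lines and the median of all tested genes, 0.019, as a dashed line. Of the HIF targets 9 lie below 0, down to Vegfa at -0.26, and Egln1 lies at 0.12.

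The differences kept their sign under all 16 alternatives tried for all members except Higd1a. Egln1 ranged from 0.077 to 0.14 and Bnip3 from -0.19 to -0.13. In female cells alone, called by Xist and Y-linked transcripts, the median of the members was -0.12, and in male cells alone also -0.12. Vegfa differed by -0.23 in female and by -0.37 in male cells, and Ankrd37 by -0.10 and -0.22. With equal cluster shares the members' median was -0.14, but Vegfa moved from -0.26 to -0.14 and Ndrg1 from -0.24 to -0.13, while Bnip3 stayed near its value at -0.15, and Ankrd37 (-0.19) and Egln3 (-0.15) were lower than before. With equal shares of finer clusters (Leiden resolution 1.0) the median was -0.093, and Ndrg1 (-0.073), P4ha1 (-0.073) and Kdm3a (-0.076) had their smallest decreases.

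The promoters of the members were searched for the core of the hypoxia response element, the sequence that HIF binds. RefSeq promoter windows of 300 bases, from 250 before to 50 after a start site of GRCm38.p6, matched 9 of the 10 members, and Ndrg1 had none in the table. The motifs searched were ACGTG and GCGTG on either strand, which read CACGT and CACGC on the printed strand. All 9 had at least 1 match in a window, as did 70.7% of the 7099 tested genes with a window and 43.8% of all 32851 windows. A gene with several windows was counted by the window with most matches. For Vegfa the window at chr17:46025114-46025413 had 2 matches and that at chr17:46032328-46032627 had 0. The window with 0 matches lies at the 5′ end of the gene span, and the window with 2 lies well inside the gene. Vegfa thus enters the counts of members with matches only through letters inside the gene. Kdm3a also had windows with 0 matches. At least 2 matches stood in a window of 7 of the 9 members and in 41% of the tested genes. A match is a description of the letters and not a bound site. The Bnip3 window held the most, 5, and its 250 bases before the start (chr7:138909507-138909756, minus strand) are printed 5′ to 3′ with the matches in capitals. The matches at -108 and -107 overlap in the letters CACGTG, an E-box that other factors such as MYC also bind.
Bnip3: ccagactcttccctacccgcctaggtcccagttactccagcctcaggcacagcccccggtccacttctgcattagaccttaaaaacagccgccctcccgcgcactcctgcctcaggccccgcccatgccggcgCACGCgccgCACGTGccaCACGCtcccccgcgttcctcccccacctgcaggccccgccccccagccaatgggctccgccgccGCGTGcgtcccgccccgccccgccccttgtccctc

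For the members whose levels followed Bnip3 most closely across cells, and for Egln1, which was higher with DFO, 30 bases around an ACGTG or its reverse complement are given, on the strand of the gene. The printed match lies at -229 from the start site for Egln3 (chr12:54204086-54204115, minus strand), at -241 for Ankrd37 (chr8:46000071-46000100, minus strand), at -16 for P4ha1 (chr10:59323268-59323297, plus strand), and at -68 for Egln1 (chr8:124949305-124949334, minus strand). Ankrd37 also had an ACGTG at -6, which is not printed.
Egln3: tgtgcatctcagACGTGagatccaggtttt
Ankrd37: cccagcagtACGTGcctagctcggctcgca
P4ha1: tgtgacagagcgCACGTagcgagggctgcg
Egln1: gggccgtggtgtACGTGcagcgcgcgcgga

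Across single cells the members rose and fell together to unequal degrees, and most closely around Bnip3 and Egln3. Pearson correlations were taken over log-transformed molecules of 8357 vehicle and 9419 DFO cells thinned to 10000 molecules. The median over the 45 pairs of members was 0.077 in vehicle and 0.072 in DFO cells, beside 0.0007 and 0.0006 over all pairs of the 8221 genes at or above the mean level of Vegfa. A correlation of 0.1 or more was reached by 19 member pairs in vehicle and 14 in DFO cells, where 0.215% and 0.135% of all pairs reached it. Sparse counts hold such values near 0, and the points of 1 library share its preparation and a fixed total. At full depth the medians were 0.15 and 0.13. Within clusters they were 0.078 and 0.073.

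Bnip3 and Egln3 formed the closest pair, with r = 0.33 in vehicle and 0.32 in DFO cells. Ankrd37 followed, at 0.25 with Egln3 and 0.24 with Bnip3 in vehicle, and 0.25 and 0.23 in DFO cells. Bnip3 also reached 0.22 with P4ha1, 0.21 with Egln1 and 0.21 with Higd1a in vehicle cells, and 0.19, 0.19 and 0.18 in DFO cells. Egln1 varied with Bnip3 and Egln3 from cell to cell while its level differed from theirs in direction between the libraries. Vegfa and Ndrg1 were the least correlated. Their highest values with any member were 0.077 and 0.079 in vehicle and 0.06 and 0.071 in DFO cells, in each case with Bnip3. Kdm3a came next, at 0.107 in vehicle and 0.094 in DFO cells, both with Egln3. Against the summed molecules of the other members, r ranged from 0.078 for Ndrg1 to 0.39 for Bnip3 in vehicle cells, and from 0.073 for Vegfa to 0.36 for Bnip3 in DFO cells.

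Plain counts show the closest pair directly. Vehicle cells with no Egln3 molecule (4654 cells) held 0.498 Bnip3 molecules per cell (0.478 to 0.518), and those with 3 or more Egln3 molecules (733 cells) held 1.54 (1.45 to 1.63). In the DFO library the means of Bnip3 were 0.457 (0.439 to 0.475) in 5347 cells and 1.53 (1.44 to 1.63) in 675 cells. From cells without Egln3 to cells with 3 or more, Ankrd37 was 3.54 times higher in vehicle and 3.79 times in DFO, and P4ha1 2.58 and 2.6 times. Ddit4 was 2.0 and 2.16 times higher, Kdm3a 2.12 and 1.92 times, Vegfa 1.99 and 1.6 times, and Egln1 1.92 and 2.01 times. The lowest ratios were those of Ndrg1 (1.48 and 1.54) and of the abundant Higd1a (1.32 and 1.35). This order is not that of the correlations: Vegfa lay near Egln1 in vehicle cells, and Higd1a was last.

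**Figure D3:**
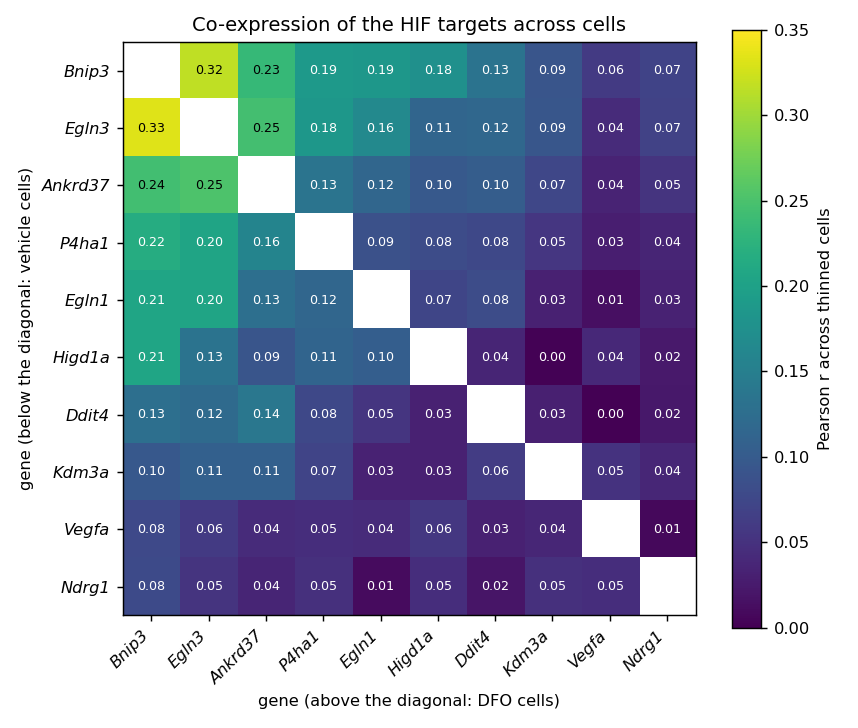
Pearson r for each pair of HIF targets across cells thinned to 10000 molecules, vehicle cells below and DFO cells above the diagonal. The block of Bnip3, Egln3 and Ankrd37 lies between 0.23 and 0.33, and the rows of Vegfa and Ndrg1 stay below 0.1.

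The pairs ranked alike in both libraries, with r = 0.97 over the 45 pairs, and no pair differed between the libraries by more than 0.04. Of the 45 pairs 10 were higher in DFO cells. Among 5389 other genes at 20 CPM or more in both libraries, the 10 whose level was most like the summed members across cells were Pgam1, Aldoa, Ldha, Tpi1, Pgk1, Mif, Pkm, Eno1, Gapdh and Slc16a3. All but Mif, which encodes a cytokine, are enzymes of glycolysis or, for Slc16a3, its lactate exporter. Pgam1 had r = 0.49 in vehicle and 0.45 in DFO cells, and Slc16a3 0.37 and 0.33. For 8 of the members the single most similar gene was glycolytic, such as Pgam1 for Bnip3 (0.40 in vehicle and 0.38 in DFO cells), Pgam1 for Egln3 (0.37 and 0.35) and Ldha for Higd1a (0.32 and 0.30). The remaining members were Ndrg1, most like the platelet chemokine Pf4 (0.20 and 0.15), and Vegfa, whose best value, with the metallothionein Mt1, was below 0.1. All 20 glycolytic HIF targets tested had a positive r with the summed members in both libraries, with a median of 0.37 in vehicle and 0.30 in DFO cells, beside -0.0048 and -0.0023 over all tested genes. The 19 genes of the HIF machinery had medians of 0.0043 and 0.0013.

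Members varied among cells by more than counting alone gives. The variance beyond the mean, divided by the squared mean, was computed on thinned cells. Its median was 0.85 over the members in vehicle and 0.694 in DFO cells, beside 0.0953 and 0.0819 over all tested genes. Ankrd37 had 1.21 in vehicle and 1.4 in DFO cells, above 96.7% and 97.8% of the tested genes. In vehicle cells the sparse Vegfa was higher still, at 1.6 (above 97.9%), but it had 0.837 in DFO cells (above 95.5%). Bnip3 (0.83 and 0.867) and Egln3 (0.87 and 0.764) lay near each other, Egln1 lower at 0.339 and 0.279, and Higd1a at 0.121 and 0.0838. The richest 10% of thinned vehicle cells held 56.8% of all Ankrd37 molecules, 43.2% of Bnip3 and 24.1% of Higd1a, shares that also depend on the level of the gene. Summed over the 10 members, a thinned cell held a median of 6 molecules in both libraries, with a 95th percentile of 15 in vehicle and 14 in DFO cells. At least 6 of the members were seen in 14.2% of vehicle and 11.1% of DFO thinned cells.

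The summed members also moved with other properties of the cells. Their correlation with the mitochondrial share was -0.30 in vehicle and -0.23 in DFO cells, and this share was higher in the DFO library, by the medians given above. The part of that share in the differences between libraries was not tested. With the number of molecules per cell the correlation was 0.011 and 0.029, and with summed G2/M genes it was -0.066 and -0.059. With summed S phase genes it was -0.067 and 0.014, but the members differed in sign. In vehicle cells 8 of 10 were negative, down to -0.12 for Ddit4 and -0.11 for Bnip3, and Egln1 (0.027) and Higd1a (0.071) were positive. In DFO cells 7 of 10 were negative, down to -0.077 for Ddit4, and Higd1a, which gives much of the sum, had 0.11. Summed megakaryocyte markers had r = 0.20 with Ndrg1, 0.15 with Higd1a and 0.11 with Vegfa in vehicle cells, and 0.14, 0.13 and 0.071 in DFO cells. Egln1 (-0.048 and -0.063) and Egln3 (-0.020 and -0.048) had negative values with these markers, and the other 5 members lay between 0.011 and 0.083 over both libraries.

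Levels across cell states were taken over 9 clusters of both libraries together. Members, other HIF lists, the listed S phase and G2/M genes, and mitochondrial and ribosomal protein genes were left out of the clustering. Clusters still differed in cell cycle. Against all other cells, the G2/M genes had a mean log2 fold from 0.89 in cluster 0 to -1.725 in cluster 4. It was 0.468 in cluster 6 and -0.866 in cluster 3. For the S phase genes the mean log2 fold ranged from -0.538 in cluster 0 to 0.328 in cluster 1. Histone genes such as Hist1h1b were also among the 10 leading genes of cluster 1. The part of the cell cycle in the members' levels by cluster was not tested. Clusters 3 and 6 were megakaryocyte-like, led by genes such as Treml1, Tesc, Pf4 and Clec1b. Cluster 4 was HSC-like, with Sult1a1 as the only marker among its 10 leading genes and a mean log2 fold of 0.69 for the HSC markers. The immune genes Ccl9, Ccl4, Ctss and Ltb also led it, and neutrophil-monocyte markers had a mean log2 fold of 0.64 there, so the name rests on a narrow margin. Cluster 8 (116 cells) was neutrophil-monocyte-like, with Mpo and Elane on top, although Elane was detected in only 19% of its cells. Mast or basophil markers were also high there, with a mean log2 fold of 3.76 beside 4.18 and Mcpt8 among the 10 leading genes. No name was given to the rest: cluster 0 was led by Nusap1 and Ube2c, cluster 1 by Shisa8, cluster 2 by Hist1h2bc, cluster 5 by Slc7a8, and cluster 7, a shallow cluster with a median of 6930 molecules, by Rpgrip1. The sum of the members differed little over the clusters, from 592.8 CPM in cluster 7 to 720.3 CPM in cluster 3 among vehicle cells and from 568 CPM in cluster 7 to 676.2 CPM in cluster 5 among DFO cells. Higd1a gave 159.2 and 359.1 CPM of these vehicle sums, and 150.8 and 334.7 CPM of these DFO sums. It differed by more between these clusters than the sums did, so the sums do not rank the clusters for the other members. Single members differed more and in different clusters.

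Vegfa and Higd1a were high in the megakaryocyte-like clusters. Vegfa lay at 15.2 CPM (14 to 16.5) in cluster 6 and 10.9 CPM (9.84 to 12) in cluster 3 of the vehicle library, but only 5.39 CPM (4.54 to 6.36) in HSC-like cells. In the DFO library these levels were 12 CPM (10.7 to 13.4), 9.77 CPM (8.63 to 11) and 5.3 CPM (4.38 to 6.36). Higd1a reached 356 CPM (350 to 362) in vehicle cells of cluster 6, beside 250 CPM (244 to 256) in HSC-like cells. Ndrg1 was highest in the shallow cluster 7, at 59.8 CPM (52.4 to 67.8) in vehicle and 51.9 CPM (45.1 to 59.4) in DFO cells. With vehicle it lay at 51.6 CPM (49.3 to 53.9) in megakaryocyte-like cluster 3 and at 21.5 CPM (20.1 to 22.9) in cluster 1. Its levels of 41.0 CPM (39.0 to 43.1) in megakaryocyte-like cluster 6 and 38.6 CPM (36.3 to 41.1) in the HSC-like cluster overlapped in counting error. Vegfa and Ndrg1 were also the members whose decrease shrank most with equal cluster shares, and the megakaryocyte-like clusters held 1409 and 838 vehicle cells but 1058 and 625 DFO cells.

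Egln3, Egln1, Ankrd37, Ddit4 and Bnip3 had high levels in the HSC-like cluster. Egln3 lay at 102 CPM (98.4 to 106) there, and at 55.5 CPM (53.2 to 57.9) and 55.8 CPM (53.4 to 58.2) in the megakaryocyte-like clusters 3 and 6 of the vehicle library. In the DFO library Egln3 held 89.4 CPM (85.5 to 93.5) in HSC-like cells, beside 44.5 CPM (42 to 47.1) and 45.9 CPM (43.3 to 48.6) in clusters 3 and 6. Ankrd37 was highest in the HSC-like cluster in both libraries, at 43.8 CPM (41.3 to 46.4) and 36 CPM (33.5 to 38.6). Egln1 held 77.9 CPM (74.6 to 81.4) in HSC-like vehicle cells, beside 45.9 CPM (43.7 to 48.1) in cluster 6. Bnip3 had no sharp steps: it was highest in the HSC-like cluster, at 86.7 CPM (83.1 to 90.3) in vehicle and 77.4 CPM (73.8 to 81.2) in DFO cells, and each neighbour in its order of 9 clusters overlapped the next in counting error. The clusters at the ends of the order are small or shallow for several members, such as cluster 8 for Egln3 at 130.3 CPM in vehicle cells. Clusters hold the cells they were built from, so these levels are a description and no test.

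**Figure D4:**
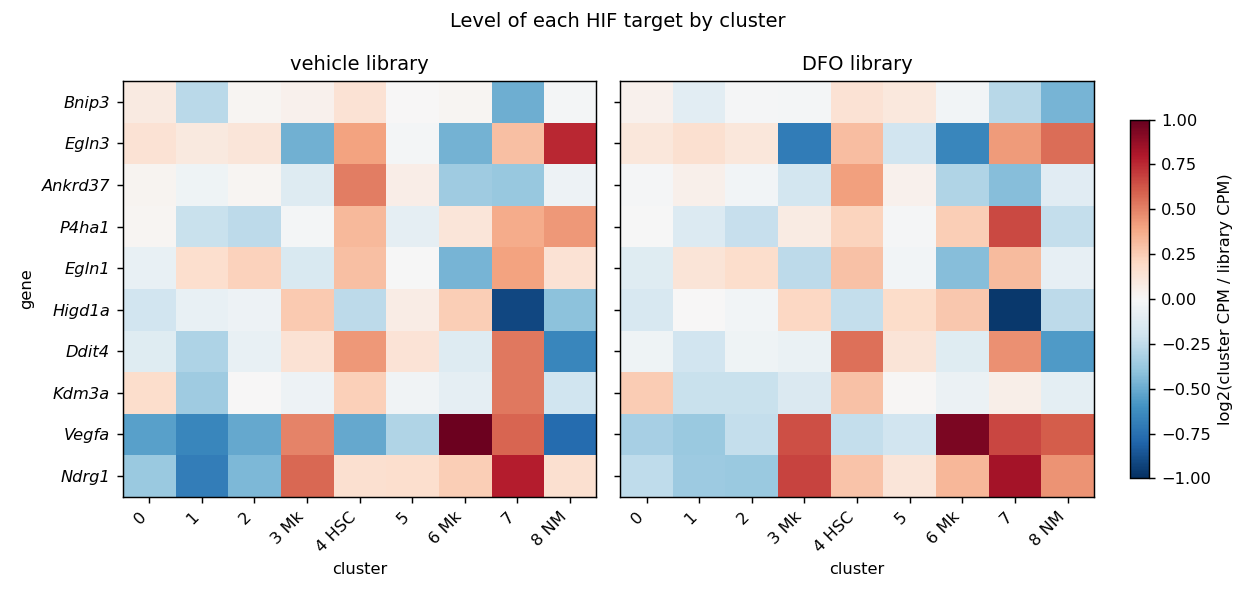
Level of each HIF target in each cluster relative to its library, as log2 of cluster CPM over library CPM, for vehicle (left) and DFO (right); Mk marks megakaryocyte-like, HSC the HSC-like and NM the neutrophil-monocyte-like clusters. Egln3 and Ankrd37 are high in cluster 4 and low in cluster 6 in both libraries, and Vegfa is low in cluster 4 and high in cluster 6.

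Within clusters most members were also lower with DFO, and so were megakaryocyte markers. The median difference of the members was below 0 in all 9 clusters, from -0.18 in megakaryocyte-like cluster 3 to -0.007 in cluster 1, in 13 of 15 clusters at resolution 1.0, and in 9 of 10 with HIF genes allowed into the clustering. Summed megakaryocyte markers were lower with DFO inside the same clusters, at ratios of 0.689 (0.683 to 0.694) in cluster 3, 0.622 (0.618 to 0.627) in cluster 6, 0.651 in cluster 5, 0.444 in cluster 7 and 0.811 in cluster 0. Their ratios for HSC-like cells and clusters 1, 2 and 8 were 0.892, 0.907, 0.893 and 0.945 (0.839 to 1.06). The part of these markers in the members' differences was not tested. In cluster 3, 7 of the 10 members were lower by 1.1-fold or more, where 13.6% of the genes tested there were, and 9 of 10 lay below 0, beside 43.0%. In the HSC-like cluster 4 of 10 were lower by as much, beside 10.2% of genes, and 9 lay below 0, beside 43.5%. In megakaryocyte-like cluster 6 it was 5 of 10, beside 11.4%, and 9 below 0, beside 40.4%. Cluster 0 had 4 (8.39% of genes) lower by 1.1-fold and 8 (44.1%) below 0, cluster 2 had 4 (10.9%) and 9 (48.2%), and cluster 5 had 5 (15.7%) and 8 (46.4%). In the shallow cluster 7 the counts were 5 (21.9%) and 6 (44.4%), and in the small cluster 8 they were 4 (30.4%) and 7 (46.7%). In cluster 1, led by Shisa8, 0 of 10 members passed 1.1-fold, beside 6.64% of genes, and 6 of 10 lay below 0, beside 41.6%. The ratio interval lay below 1 for 0 members of cluster 1 and above 1 for 2. Its summed members were higher with DFO, at a ratio of 1.016 (1.0005 to 1.032), from 622.3 to 632.4 CPM. Higd1a alone rose from 285.1 to 295.4 CPM there, so the rise of the sum is that of Higd1a and not of the set. In cluster 7 the interval lay below 1 for 1 member and above 1 for 0. That the clusters differ from each other in this was not tested.

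Ankrd37 and Ddit4 lay below 0 in all 9 clusters, Vegfa, Bnip3, Egln3, Kdm3a and P4ha1 in 8, Ndrg1 in 7, Higd1a in 5 and Egln1 in 1. Egln3 differed by -0.31 in cluster 3, from 55.5 to 44.5 CPM, and by -0.19 in the HSC-like cluster, from 102 to 89.4 CPM. Ankrd37 differed most in the HSC-like cluster, at -0.28. Vegfa had a ratio of 0.789 (0.684 to 0.909) in megakaryocyte-like cluster 6, and in the HSC-like cluster its ratio of 0.983 (0.762 to 1.27) left a decrease or an increase not detectable at 140 and 116 molecules. Egln1 had ratios of 1.08 (1.01 to 1.15) in the HSC-like cluster and 1.11 (1.04 to 1.2) in cluster 6. Ddit4 differed most in cluster 3, by -0.37, from 28.7 CPM (27 to 30.5) to 22 CPM (20.3 to 23.8).

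**Figure D5:**
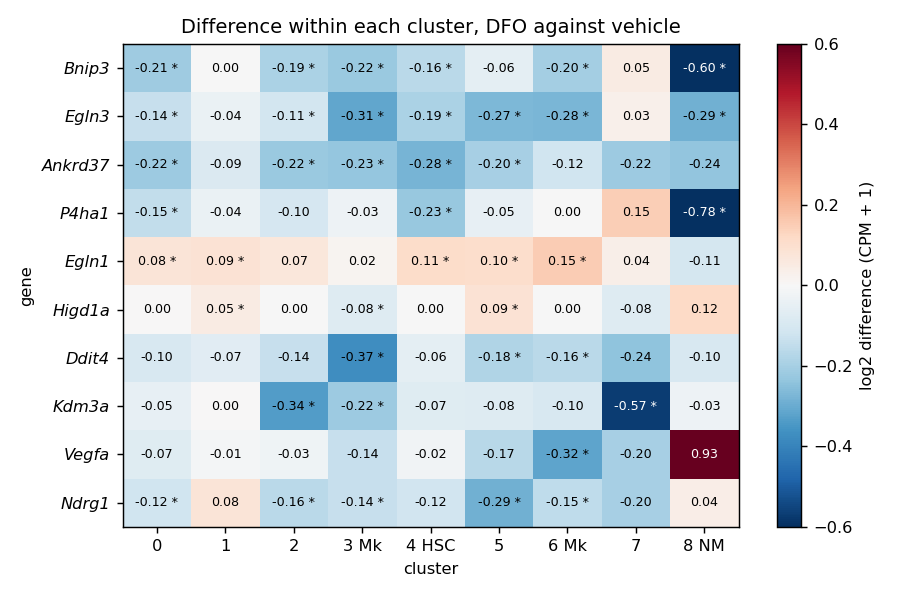
Log2 difference between DFO and vehicle cells of the same cluster for each HIF target, with an asterisk where the exact 95% interval of the ratio leaves out 1; Mk, HSC and NM mark the named clusters. Egln3, Bnip3 and Ankrd37 are lower in most clusters, Egln1 is higher in 8 of 9, and cluster 8 rests on 63 vehicle and 53 DFO cells.

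The genes that sense oxygen and carry the HIF signal had a median difference above 0. Of 19 genes of the HIF machinery tested, 15 were higher and 4 lower with DFO, with a median of 0.043, and 3 were lower and 1 higher by 1.1-fold or more. Among all tested genes the median was 0.019 and 42.1% had a difference below 0. By 1.1-fold or more, 8.56% of them were lower and 10.1% higher. Hif1a went from 41.5 CPM to 45.2 CPM with DFO, a difference of 0.12. Arnt (0.03), Vhl (0.04), the third prolyl hydroxylase Egln2 (0.002) and the asparagine hydroxylase Hif1an (0.08) differed by less than 1.1-fold. Epas1 had only 0.146 CPM in vehicle and 0.215 CPM in DFO. The highest were Hsp90aa1 (0.19), a chaperone of the alpha subunit, and Hif1a, and the lowest were Siah1b (-0.20), a ubiquitin ligase, and Cited2 (-0.17), a transcriptional inhibitor of HIF that is also a HIF target.

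Of the 20 glycolytic HIF targets tested, 16 were lower, 9 of them by 1.1-fold or more, and 1 was higher by as much, with a median of -0.13. Aldoc (-0.62) and Slc16a3 (-0.47) were lowest, and Slc2a1 (0.07) and Hk2 (0.15) highest. Of 27 other HIF targets tested, 18 were lower and 9 higher, 7 and 3 of them by 1.1-fold or more, with a median of -0.059. Their lowest were Narf (-0.41) and Selenbp1 (-0.33) and their highest Sap30 (0.21) and Tfrc (0.23), the transferrin receptor, whose mRNA is also stabilised by iron regulatory proteins when iron is scarce. Of 12 ATF4 targets, given because Ddit4 is also one, 10 were higher, 5 by 1.1-fold or more, with a median of 0.10, and 2 were lower by as much, Ddit3 (-0.32) and Vldlr (-0.30). Mthfd2 (0.26) and Slc7a5 (0.24) were the highest ATF4 targets, so Ddit4 at -0.17 differed in sign from most of that list. Of 22 other iron-dependent dioxygenases, 13 were lower and 9 higher, with a median of -0.023, between Kdm5b (-0.26) and Kdm6b (-0.16) at the low end and Hif1an (0.08) and Tet1 (0.16) at the high end. Among all tested genes 42.1% had a difference below 0, and 8.56% were lower and 10.1% higher by 1.1-fold. The lists are described, not tested.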

How the data were processed

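For each library the authors deposited a table of natural log values per gene and cell; mm10, FastQC 0.11.9, Trim Galore 0.6.5 and Cell Ranger 3.0.2 are named per the submitters' processing notes, while how values were normalized, which annotation was used and how cells were filtered is not stated there. Back-transformed values were whole multiples of a cell's smallest step (within 0.05) for 100% of values, which gave 260938938 vehicle and 284326017 DFO molecules. All deposited cells were used, and groups came from the sample labels. Molecules were summed per library or cluster and scaled to CPM. With 1 library per group no test was run.

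Cells were clustered on 2000 variable genes, 30 principal components and 15 neighbours, with Leiden at resolution 0.5, in Python 3.11.15 (scanpy 1.11.5, leidenalg 0.10.2, numpy 2.4.6, scipy 1.17.1). Naming a cluster took 3 detected markers of its type and 1 of them in its top 10 genes, with that type ahead, in markers there and in mean fold, of the others with 3 detected markers. Doublets were not removed, and leaving out at least 8% of cells by Scrublet score was an alternative. Scripts were tested on simulated data. The members and lists were chosen with earlier results of these data known. The text names the 10 members, the 2 highest and 2 lowest of each list described, fixed HIF genes, and the 10 genes most like the members across cells.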

Additional observations from a re-analysis of the deposited data

Results flagged for a closer look

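Higd1a differed between DFO and vehicle in opposite directions in different clusters, each with a ratio interval that leaves out 1. Its log2 difference was -0.077 in megakaryocyte-like cluster 3, 0.051 in cluster 1 and 0.087 in cluster 5. The difference between clusters was not tested, and the intervals cover counting error only.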

How the results depend on the processing

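Over 16 alternatives, 4 of them chosen after seeing the data (finer equal cluster shares, no shallow cluster, no likely doublets or cells of both sexes, no shared barcodes), the members' median stayed below 0. It moved beyond counting error only to -0.0925, with equal cluster shares at resolution 1.0, where 2 instead of 5 members were lower by 1.1-fold; 2 were also with a pseudocount of 10 CPM. In female cells alone 1 member, Egln1, was higher by 1.1-fold. Higd1a turned to 0.0072 with equal cluster shares. The median of the iron handling list (-0.0066, with Tfrc in it) turned to 0.0111 with each cell weighing the same, 0.0275 in male cells and 0.0272 in thinned cells, so no direction is read for it. The cause was not tested.

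The median pairwise correlation was 0.0418 in vehicle and 0.0366 in DFO cells thinned to 5000 molecules, and 0.1462 and 0.126 at full depth, where the scaling of cells of unequal depth also differs. The median log2 ratio of a member's highest to lowest cluster among vehicle cells was 0.9953, and 0.6397 at resolution 0.25, 0.9455 at 1.0 and 1.1699 with HIF genes among the clustering genes. The median within-cluster difference was -0.12, and -0.14, -0.093 and -0.10 in the same order of settings. No paired analysis was possible because each group has 1 library.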
